A study of Mus musculus with 6 samples.

Results

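The genes described are nuclear receptors of the PPAR, RXR and LXR families and 2 of their coregulators, measured in macrophages with and without E-FABP. They were taken as every probe set whose platform gene symbol was Ppara, Ppard, Pparg, Rxra, Rxrb, Nr1h2, Nr1h3, Ppargc1b or Ncor1. This gave 12 probe sets for 7 of the 9 genes, out of 45037 probe sets and 18193 genes on the arrays. No probe set carried Nr1h2 (LXR beta) or Ncor1 (the corepressor NCoR1) as its gene here, so these 2 genes were not analysed here, and 1 further probe set shared by Ppard and another gene was left out. The samples were 3 cultures from E-FABP knockout mice and 3 from wild-type mice, all on a C57BL/6 background and aged 6 to 8 weeks. Bone marrow cells were grown with GM-CSF at 20 ng/ml for 7 days, and every culture of either genotype was then kept for 18 h beside E0771 cells, a mouse breast cancer line, in an insert. There was no culture without tumour cells, the labels describe a knockout animal and not one restricted to macrophages, and they call the replicates biological but do not state how many animals gave them. The p-values measure the spread between these samples. Replicates are written KO1 to KO3 and WT1 to WT3, and their values are always given in that order.

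E-FABP, the product of Fabp5, carries fatty acids and related lipids in the cytosol and has been shown in cultured cells to hand ligands to PPAR delta in the nucleus. PPARs are transcription factors switched on by fatty acids and their derivatives, and LXRs by oxidised cholesterol. Both bind DNA as pairs with an RXR, and coactivators such as PGC-1 beta (Ppargc1b) or corepressors such as NCoR1 set whether the bound pair raises or lowers transcription. In macrophages, PPAR gamma is induced by GM-CSF, and LXRs drive cholesterol efflux. The comparison asks whether the receptors' own mRNA differed when their ligand carrier was missing. Ligand binding and receptor activity were not measured.

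Values are log2 intensities as the authors deposited them, so a difference of 1 is a doubling, and a value belongs to its own probe set, with no order between genes. All differences are knockout minus wild type. They were tested with limma across all 45037 probe sets and adjusted by the Benjamini-Hochberg method, with a threshold of 0.05. The median of all values was 5.63, and since no background level came with the values, a probe set below that median is called dim here. Fabp5 showed the stated genotype in all 6 samples. Its brighter probe set read 8.13, 8.31 and 8.39 in the knockout samples, against 14.47, 14.41 and 14.45 in the wild-type samples. The cultures carried macrophage markers, with all 10 listed markers above the median of all values, among them Csf1r and Lyz2. All 9 dendritic cell markers and 9 of 10 neutrophil markers measured also lay above it, so this does not set macrophages apart. The mean deviation of the macrophage markers from the gene means ran from -0.20 to -0.02 in knockout and from 0.07 to 0.15 in wild type. Of these 10, 2 fell past limma's adjusted threshold, Fcgr1 (-1.13) and Mertk (-0.46). By that threshold 2.85% of all genes rose and 2.05% fell. On the same arrays other lists also differed between genotypes. The same mean deviation ran from 0.03 to 0.47 in knockout and from -0.30 to -0.06 in wild type for 9 dendritic cell markers, of which 2 rose. It ran from -0.62 to 0.04 in knockout and from 0.09 to 0.41 in wild type for 10 neutrophil markers, of which 0 passed limma's adjusted threshold while 7 were lower by an unadjusted p under 0.05 and 1, Mmp8, was higher by it, against 8.15% and 15.2% of all genes. For 9 fibroblast markers, of which 3 lay above the median, it ran from -0.31 to -0.19 in knockout and from 0.20 to 0.30 in wild type. Of these 9, 3 fell. The adipocyte markers, another possible source of Pparg mRNA, lay between -0.02 and 0.03 in knockout and between -0.02 and 0.02 in wild type, with 1 of 6 above the median. Epithelial markers, which the tumour cells could carry, lay between -0.05 and 0.03 in knockout and between -0.04 and 0.05 in wild type, and 0 of 8 passed. RNA came from whole cultures, so fewer cells of a type and less RNA per cell cannot be told apart. The part of these markers in the receptor values was not tested.

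None of the 12 receptor and coregulator probe sets passed limma's adjusted threshold, where 3.75% of all probe sets did. Their adjusted p-values lay between 0.121 and 0.977. By an unadjusted p under 0.05, 3 of the 12 were higher in knockout (Rxrb, Ppargc1b and Pparg) and 0 were lower, against 11.7% of all probe sets that were higher and 8.44% that were lower by that rule. Rxrb and Pparg were also the only probe sets whose 3 knockout values all lay above the 3 wild-type values, 2 of 12 against 15.8% of all probe sets, a share near the background. The median difference of the 7 genes was 0.15, and that of all genes was 0.01. The 95% intervals of the 12 differences reached from -0.42 to 0.64, so each lay between 0.75-fold and 1.56-fold of wild type. For a single probe set, an exact permutation test of 3 against 3 samples could not give a two-sided p below 0.1.

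**Figure D1:**
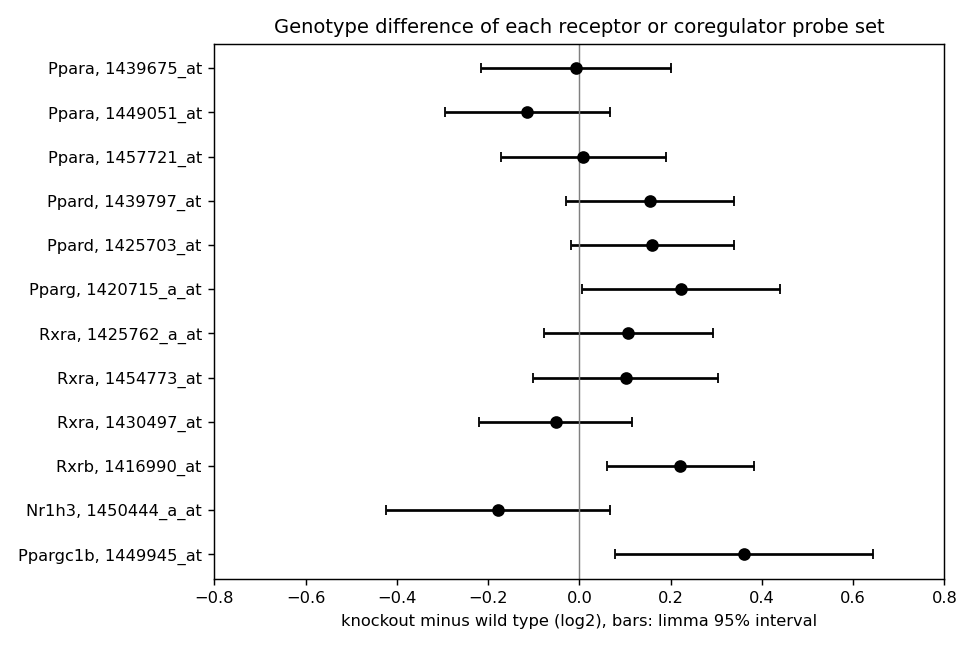
Difference between knockout and wild type on the log2 scale (horizontal axis) for each of the 12 probe sets (rows), with limma's 95% interval as bars. The intervals of Pparg, Rxrb and Ppargc1b lie above 0 before adjustment, none of the 12 passed after adjustment, and the widest reaches 0.64.

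Among the PPARs, which sense fatty acids, Ppard codes for the receptor to which E-FABP is known to deliver ligand. Its brighter probe set, 1439797_at, read 6.99, 6.99 and 6.95 in knockout samples, against 6.96, 6.68 and 6.83 in wild-type samples. The lowest knockout value thus fell just under the highest wild-type value, and the remaining wild-type samples were lower. The means were 6.98 ± 0.02 in knockout and 6.82 ± 0.14 in wild type (SD, n = 3 each), a difference of 0.15 (SE 0.08, 95% interval -0.03 to 0.34, limma adjusted p = 0.332). The other Ppard probe set, 1425703_at, differed by 0.16 (SE 0.08, limma adjusted p = 0.300), with 5.96, 5.87 and 5.82 in knockout samples and 5.83, 5.61 and 5.73 in wild-type samples. The 2 probe sets therefore gave nearly the same difference and the same overlap, with WT1 inside the knockout range in both. Without WT2, the lowest sample of both, the differences were 0.08 and 0.10, and without WT1 they were 0.22 and 0.21.

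Pparg, which codes for the receptor that drives lipid storage genes and that GM-CSF induces in macrophages, was represented by 1 probe set, 1420715_a_at. It read 7.44, 7.43 and 7.66 in knockout samples, against 7.31, 7.13 and 7.42 in wild-type samples. The lowest knockout value exceeded the highest wild-type value by less than the SD within either genotype. The means were 7.51 ± 0.13 in knockout and 7.29 ± 0.14 in wild type (SD, n = 3 each), or 1.17-fold, with an interval of 1.00-fold to 1.36-fold (difference 0.22, SE 0.10, limma adjusted p = 0.237). The difference was 0.15 without WT2 and 0.29 without WT3, and its adjusted p stayed between 0.188 and 0.496 when each sample was left out in turn. After quantile normalization it was 0.16. Pparg is transcribed from several starts, and the deposited values do not tell which start a probe set reports. RefSeq windows (GRCm38.p6) of 3 Pparg starts were searched for AGGTCA, the hexamer that PPAR, RXR and LXR proteins recognise. The hexamer stood within 30 bases before the start in 2 of them, shown here because they are the windows of a PPAR gene that hold it. They cover chr6:115361044-115361163 and chr6:115362249-115362368, plus strand, 100 bases before the start and 20 from it, with the hexamer in capitals. The labels upstream and downstream compare these 2 only. The remaining Pparg window begins further downstream, at chr6:115421816, and does not hold the hexamer.
Pparg, upstream start: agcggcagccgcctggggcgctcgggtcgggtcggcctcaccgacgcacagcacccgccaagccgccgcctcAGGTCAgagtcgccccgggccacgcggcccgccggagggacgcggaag
Pparg, downstream start: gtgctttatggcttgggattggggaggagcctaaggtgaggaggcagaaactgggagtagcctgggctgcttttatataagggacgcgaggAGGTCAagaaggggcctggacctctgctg
On either strand AGGTCA was present in 16.3% of all 32851 windows of 300 bases, and in 3 of 14 windows of the listed genes. The remaining one was a window of Rxra. Ppargc1b had no window. A pair with RXR binds a repeat of the hexamer. The repeats with a spacer of 1 base (PPAR) and of 4 bases (LXR) stood in 0 of the 14 windows. The match is a description of letters and shows no binding.

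Ppara codes for the PPAR best known for fatty acid oxidation in liver, and its 3 probe sets were all dim. The brightest, 1439675_at, read 4.91, 5.20 and 5.08 in knockout samples, against 5.10, 4.95 and 5.16 in wild-type samples, with the genotypes fully mixed. Its difference was -0.01 (SE 0.09, 95% interval -0.22 to 0.20, limma adjusted p = 0.977), and its sign turned to 0.02 after quantile normalization and 0.0034 after median centring. Probe set 1449051_at differed by -0.11 (SE 0.08, limma adjusted p = 0.478) and 1457721_at by 0.01 (SE 0.08, limma adjusted p = 0.970). No direction can be read for Ppara at this signal.

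The RXRs are the partners that PPARs and LXRs need to bind DNA. Rxrb, the widely expressed RXR beta, had the smallest p of the 12 probe sets and a narrow spread. Its probe set, 1416990_at, read 8.19, 8.23 and 8.36 in knockout samples, against 8.00, 8.03 and 8.08 in wild-type samples. All knockout values lay above all wild-type values, by 0.11 at the closest. The means were 8.26 ± 0.09 in knockout and 8.04 ± 0.04 in wild type (SD, n = 3 each), or 1.17-fold, with an interval of 1.04-fold to 1.30-fold (difference 0.22, SE 0.07, limma adjusted p = 0.121). Leaving out each sample in turn gave differences of 0.17 to 0.26 and limma adjusted p of 0.163 to 0.276, so it stayed above 0 and did not pass. After quantile normalization the difference was 0.17 (limma adjusted p = 0.207). Over the alternatives run on all 6 samples, its lowest limma adjusted p was 0.0622, with above-median probe sets only.

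Rxra, coding for the main RXR of myeloid cells, had 3 probe sets. The brightest, 1425762_a_at, read 7.59, 7.57 and 7.68 in knockout samples, against 7.53, 7.36 and 7.63 in wild-type samples, with WT3 inside the knockout range. It differed by 0.11 (SE 0.08, 95% interval -0.08 to 0.29, limma adjusted p = 0.517). Probe set 1454773_at differed by 0.10 (SE 0.09, limma adjusted p = 0.585), with 7.29, 7.18 and 7.28 in knockout samples and 7.18, 6.97 and 7.29 in wild-type samples. In both, WT2 was the lowest sample, and without it the differences were 0.04 and 0.01. After quantile normalization of all 6 samples they were 0.05 and 0.05. The dimmest probe set, 1430497_at, differed by -0.05 (SE 0.07, limma adjusted p = 0.754), and none of the 3 passed. The Rxra window with the hexamer, chr2:27709192-27709311 on the plus strand of GRCm38.p6, holds it on both strands, in the order TGACCT then AGGTCA.
Rxra: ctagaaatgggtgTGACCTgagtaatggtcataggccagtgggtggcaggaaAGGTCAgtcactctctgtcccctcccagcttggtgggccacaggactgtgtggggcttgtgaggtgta

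Nr1h3 codes for LXR alpha, the LXR enriched in macrophages. Its probe set, 1450444_a_at, was the only one of the 8 probe sets above the median with a lower mean in knockout. It read 6.77, 6.55 and 6.86 in knockout samples, against 6.76, 6.85 and 7.10 in wild-type samples. The genotypes overlapped, with KO2 the lowest and WT3 the highest sample. The means were 6.73 ± 0.16 in knockout and 6.91 ± 0.17 in wild type (SD, n = 3 each), or 0.88-fold, with an interval of 0.75-fold to 1.05-fold (difference -0.18, SE 0.11, limma adjusted p = 0.405). The difference was -0.08 without WT3, -0.09 without KO2 and -0.25 without WT1. KO2 was also the lowest sample of the 17 interferon-stimulated genes measured. Their mean deviation was -0.82, -1.77 and -0.21 in knockout samples, against 0.83, 1.24 and 0.74 in wild-type samples. WT3, the highest sample of Nr1h3, was thus the lowest wild-type sample of that list. KO2 was likewise the lowest sample of the macrophage list (-0.20) and the neutrophil list (-0.62), and the highest of the dendritic cell list (0.47). It was not an extreme of the fibroblast list (-0.19). Whether Nr1h3 goes with any of these lists was not tested.

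Ppargc1b codes for PGC-1 beta, a coactivator known for raising mitochondrial and lipid synthesis genes. It showed the widest difference and the widest spread of the 7 genes, at percentile 93.9 of all probe sets by SD within genotypes. Its probe set, 1449945_at, read 8.40, 8.32 and 7.93 in knockout samples, against 7.90, 7.71 and 7.95 in wild-type samples. KO1 and KO2 lay above every wild-type sample, and KO3 lay among the wild-type samples. The means were 8.22 ± 0.25 in knockout and 7.86 ± 0.13 in wild type (SD, n = 3 each), or 1.28-fold, with an interval of 1.06-fold to 1.56-fold (difference 0.36, SE 0.13, limma adjusted p = 0.145). Without KO3 the difference was 0.51 and passed (limma adjusted p = 0.0318), and without KO1 it was 0.27 (limma adjusted p = 0.336). This was the sole case, over 13 alternatives fitted on probe sets, in which any of the 12 probe sets passed. KO3 was also the knockout sample nearest to wild type in the interferon-stimulated list (-0.21) and in the dendritic cell list (0.03). The same held in the macrophage list (-0.02) and the neutrophil list (0.04), but not in the fibroblast list (-0.21). The part of any of these lists in the Ppargc1b values was not tested.

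**Figure D2:**
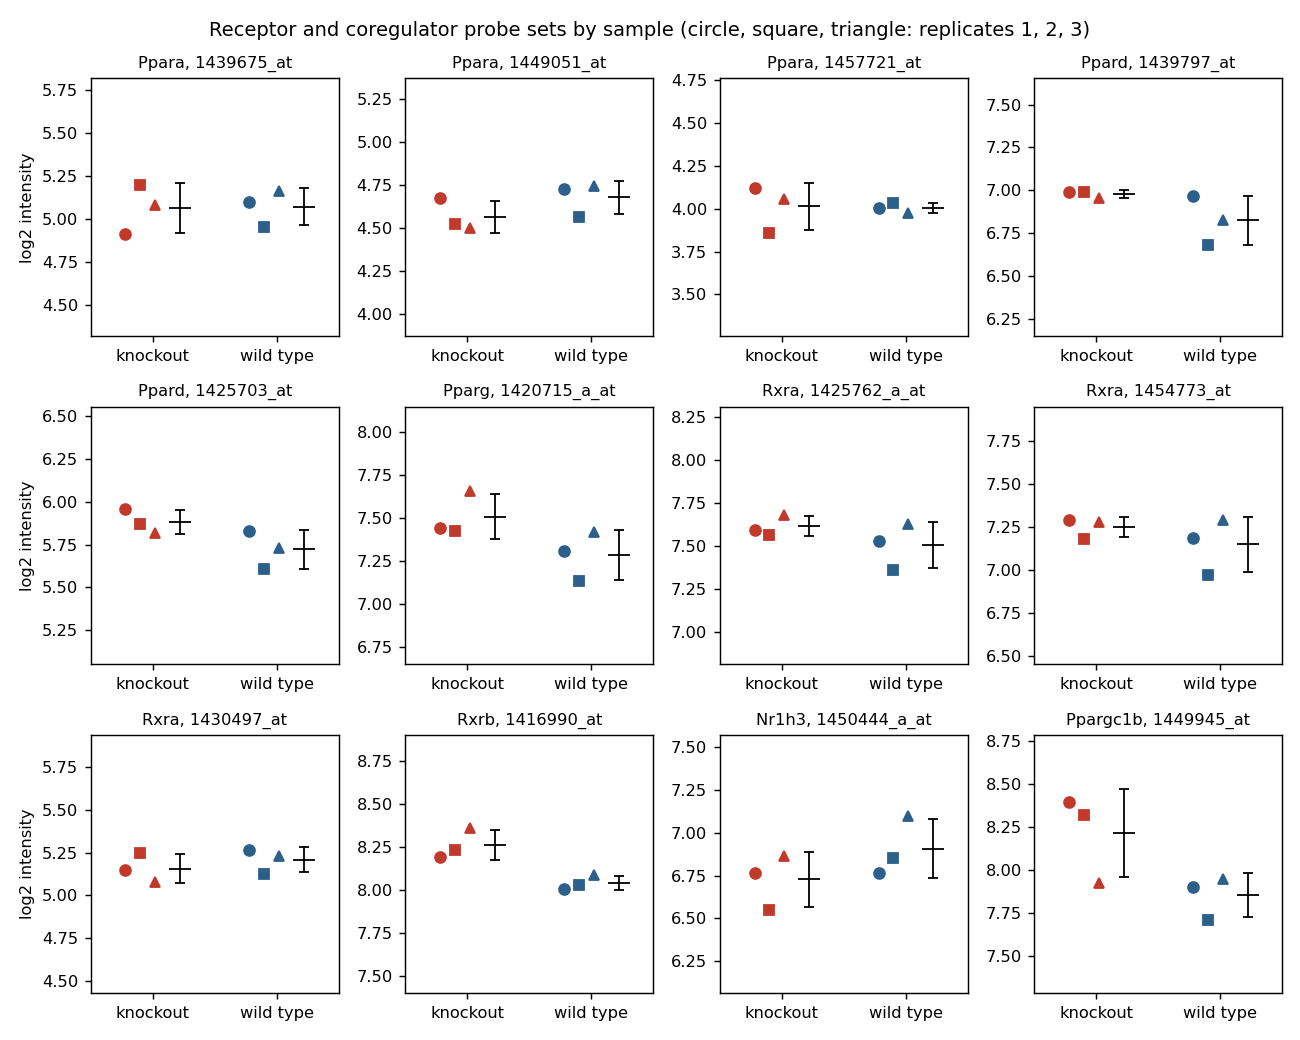
Log2 intensity (vertical axis, each panel 1.5 units high) of each of the 12 probe sets in the 3 knockout samples (red, left) and the 3 wild-type samples (blue, right), with mean and SD as black bars. The genotypes do not overlap in Rxrb and Pparg and overlap in the other 10. In Pparg the lowest knockout value (7.43) lies only just above the highest wild-type value (7.42). In Ppargc1b KO3 (triangle) sits among the wild-type samples.

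Across the 12 probe sets the samples did not take turns evenly. WT2 was the lowest of the 6 samples in 6 of 12, against 21.5% of all probe sets, and the highest in 0. KO1 was the highest in 5 of 12, against 13.4% of all probe sets. The mean deviation of the 7 genes was 0.05, 0.05 and 0.08 in KO1, KO2 and KO3, against -0.05, -0.17 and 0.03 in WT1, WT2 and WT3. WT2 was thus the sample that stood lowest. It was also the highest sample of the interferon-stimulated list (1.24) and the macrophage list (0.15), and the lowest of the dendritic cell list (-0.30). In the neutrophil list (0.09) it was neither. Whether the receptor values go with any of these lists was not tested. These counts take some genes more than once, as Ppard enters both with each of its probe sets, and Rxra enters that of WT2 repeatedly. The probe sets also share these samples, so they are not independent of each other.

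**Figure D3:**
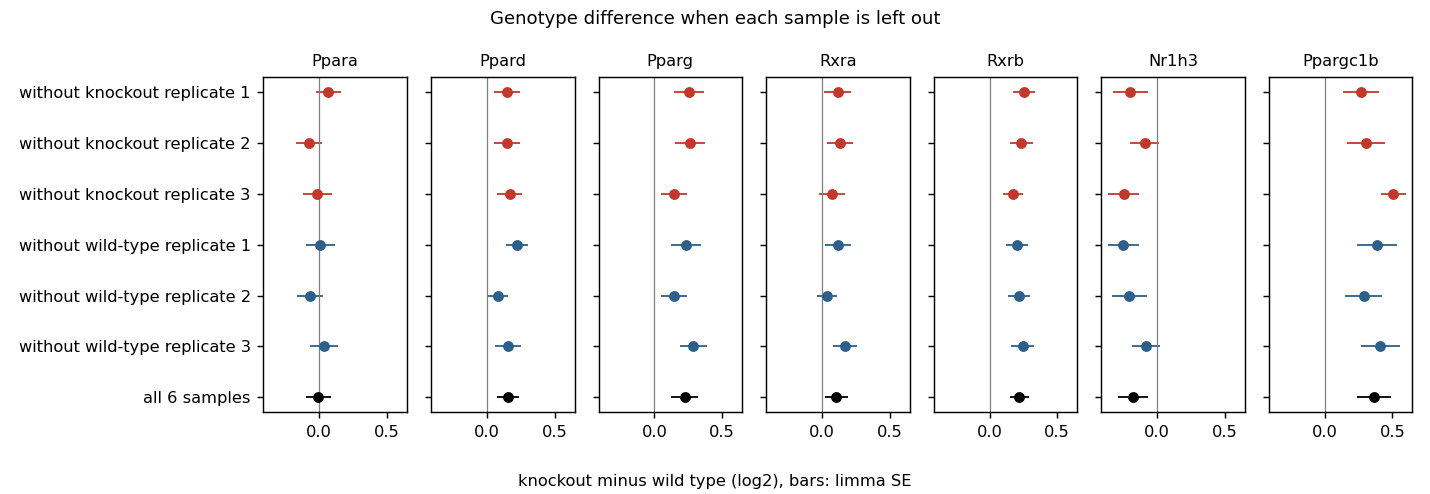
Difference between knockout and wild type on the log2 scale (horizontal axis, bars are limma's SE) for the brightest probe set of each of the 7 genes, with each sample left out in turn (red, a knockout sample left out; blue, a wild-type sample left out) and with all 6 samples (black). Rxrb kept 0.17 to 0.26, Ppargc1b ran from 0.27 to 0.51, and Ppara lay on both sides of 0.

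Among Rxrg and the receptors that pair with RXR, the vitamin D receptor was higher in knockout. Of 12 such receptors measured, 1 rose, 0 fell and 11 did not pass, where 2.85% of all genes rose and 2.05% fell. Vdr, which also restrains inflammatory genes, read 7.87, 8.18 and 7.86 in knockout samples, against 7.37, 7.31 and 7.55 in wild-type samples, with no overlap. Its difference was 0.56 (SE 0.10, limma adjusted p = 0.0269), and its other probe set differed by 0.70 without passing. Vdr lost the call without KO1, KO2, WT1 or WT2 (limma adjusted p up to 0.103). The retinoic acid receptor gene Rarb, dim on these arrays, differed by 0.39 (SE 0.13, limma adjusted p = 0.136). The list's median was 0.01.

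Of 23 other coregulators measured, 3 rose, 1 fell and 19 did not pass, with a median of 0.05. Of all genes, 2.85% rose and 2.05% fell. The coactivator gene Ncoa2 rose by 0.36 (SE 0.07), the arginine methyltransferase gene Prmt1 by 0.35 (SE 0.08) and Tbl1xr1, a subunit of the NCoR corepressor complex, by 0.30 (SE 0.06), with limma adjusted p of 0.0365, 0.0437 and 0.0392. Only 1 of 4 Ncoa2 probe sets and 1 of 6 Tbl1xr1 probe sets passed, and averaging the probe sets of each gene left the list 2 calls. Helz2, a PPAR coactivator gene that interferon also induces, fell to 11.04, 10.98 and 11.11 in knockout samples, against 11.54, 11.50 and 11.50 in wild-type samples (difference -0.47, SE 0.07, limma adjusted p = 0.0177). All 17 interferon-stimulated genes measured fell on these arrays as well (median -1.77), where 2.05% of all genes fell. Whether Helz2 goes with them was not tested. The number of coregulators called was 0 without KO1, KO2 or WT2, and 1 without each of the other 3 samples.

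**Figure D4:**
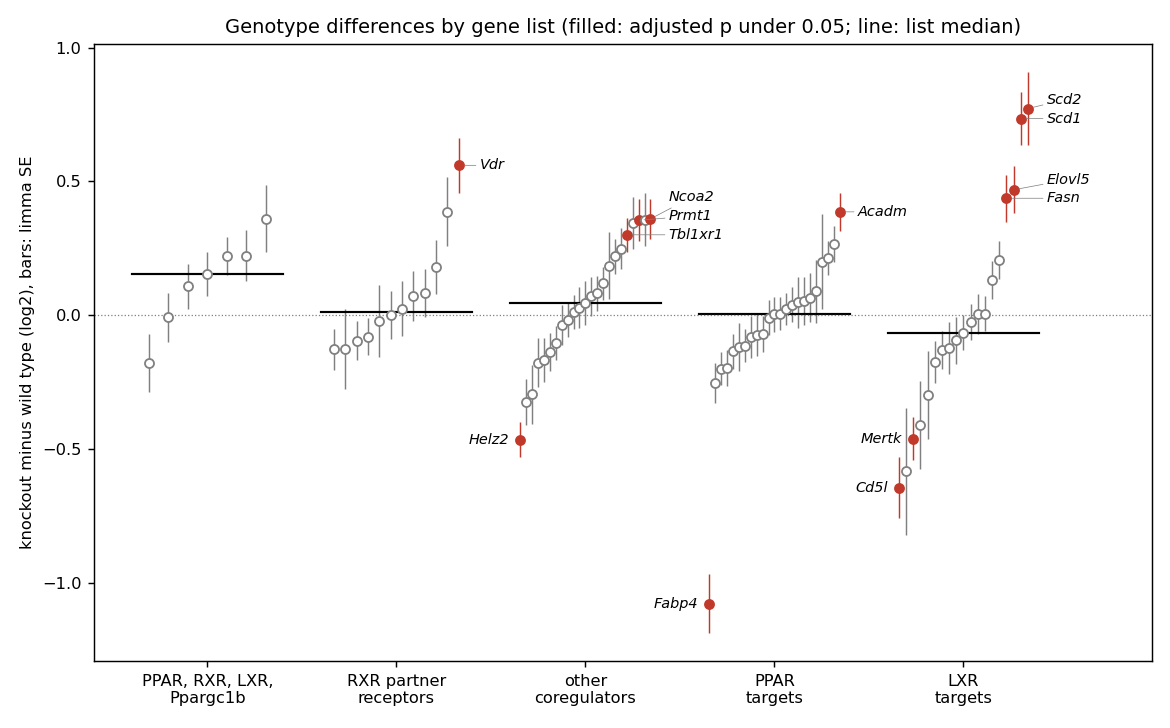
Difference between knockout and wild type on the log2 scale (vertical axis, bars are limma's SE) for each measured gene of 5 lists (columns), ordered by size, with calls at an adjusted p under 0.05 filled and named and the list median as a line. The first column, the 7 receptor and coregulator genes described above, holds 0 calls, and the LXR target column holds calls on both sides of 0.

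PPAR target genes did not move one way. With 23 measured, 1 rose, 1 fell and the other 21 did not pass, with a median of 0.00, where 2.85% of all genes rose and 2.05% fell. Fabp4 is a classical PPAR gamma target that lies near Fabp5 on the chromosome and codes for a related carrier. It fell to 10.45, 10.01 and 10.21 in knockout samples, against 11.39, 11.34 and 11.19 in wild-type samples. Its difference was -1.08 (SE 0.11, limma adjusted p = 0.00811), all 4 of its probe sets fell, and it passed whichever sample was left out. Of 7 fatty-acid-binding protein genes measured, 4 fell and 3 did not pass, where 2.05% of all genes fell. The 4 include Fabp5, the gene knocked out, whose fall was given by the design. Besides Fabp5 and Fabp4 these were Fabp3 (-1.10, limma adjusted p = 0.0127) and Fabp7 (-0.95, limma adjusted p = 0.00278), which are not in the PPAR target list. Whether the probes of Fabp3, Fabp4 and Fabp7 also bind Fabp5 mRNA was not tested. Acadm, an enzyme of fatty acid oxidation, rose by 0.39 (SE 0.07, limma adjusted p = 0.0273), and lost the call without KO1, KO2, WT1 or WT2. The lipid droplet coat gene Plin2 read 13.87, 13.88 and 13.93 in knockout samples, against 14.07, 14.12 and 14.09 in wild-type samples, a difference of -0.20 (SE 0.06, limma adjusted p = 0.112). These did not overlap, and Plin2 passed with trend and robust settings (limma adjusted p = 0.00577) and with above-median probe sets only (limma adjusted p = 0.0475). The fatty acid importer Cd36 differed by -0.13 (SE 0.07, limma adjusted p = 0.294), and passed with trend and robust settings (limma adjusted p = 0.0480). Angptl4, a lipase inhibitor, differed by 0.09 (SE 0.12, limma adjusted p = 0.730). The kinase gene Pdk4, which restrains glucose oxidation, was dim and differed by 0.05 (SE 0.10, limma adjusted p = 0.832). The number called was 1, Fabp4, without KO1, KO2, WT1 or WT2.

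Among LXR target genes, calls ran in both directions. Among the 19 with a probe set, 4 rose and 2 fell while 13 did not pass, with a median of -0.07. The shares of all genes were 2.85% that rose and 2.05% that fell. The 4 that rose make or modify fatty acids, namely the desaturases Scd2 (0.77, SE 0.14) and Scd1 (0.74, SE 0.10), Elovl5 (0.47, SE 0.09), which lengthens fatty acids, and Fasn (0.44, SE 0.09), which builds them, with limma adjusted p of 0.0158 to 0.0331. Those genes are also targets of SREBP-1, and Srebf1, which codes for it, read 9.17, 9.24 and 9.35 in knockout samples, against 9.05, 9.08 and 9.02 in wild-type samples. Srebf1 differed by 0.21 without passing (SE 0.07, limma adjusted p = 0.146). The 2 that fell were Cd5l (-0.64, SE 0.12), a secreted protein of macrophages, and Mertk (-0.46, SE 0.08), a receptor for dying cells. The cholesterol exporters did not pass. Abca1 read 13.03, 12.99 and 13.16 in knockout samples, against 13.23, 13.17 and 13.16 in wild-type samples, a difference of -0.13 (SE 0.07, limma adjusted p = 0.357). Abcg1 differed by -0.18 (SE 0.08, limma adjusted p = 0.253), and its other probe set by 0.20. Mylip, which codes for a ligase that removes the LDL receptor, differed by 0.0032 (SE 0.07, limma adjusted p = 0.988). The number called was 0 without KO1, 1 without KO2, WT1 or WT2, 4 without WT3 and 5 without KO3. Fasn stayed past the threshold in 1 of these 6 fits, Elovl5 in 1, Scd2, Mertk and Cd5l in 2, and Scd1 in 4.

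Sequence windows of the LXR targets were searched for the element that an LXR and RXR pair binds, a direct repeat of the hexamer with a spacer of 4 bases. The strict repeat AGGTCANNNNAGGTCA stood in 0 of 20 windows of LXR targets and in 0.0152% of all windows, and the PPAR element AGGTCANAGGTCA in 0 of 24 windows of PPAR targets and in 0.0396% of all windows. A relaxed spelling, GGTNA and GGTCA with 5 bases of any kind between them, chosen after these windows had been searched, stood on the strand opposite to transcription in 3 of the 20 LXR target windows and in 0.207% of all windows. It is looser than the strict repeat, and every strict repeat also matches it. Because it was chosen with these windows seen, its share in them cannot be tested against that in all windows. Binding to these letters was not tested. The 3 windows belong to Abca1, Srebf1 and Fasn, which differed by -0.13, 0.21 and 0.44, and only Fasn of the 3 passed the threshold. They are printed whole to set the relaxed spelling beside the readout of its gene, with the match in capitals as it reads in the direction of transcription. In GRCm38.p6 (RefSeq) they are chr4:53159846-53160145 for Abca1, chr11:60210422-60210721 for Srebf1 and chr11:120824498-120824797 for Fasn, all on the minus strand, from 250 bases before the start to 50 from it. The match lies 67 to 53 bases before the start of Abca1, 182 to 168 before that of Srebf1 and 225 to 211 before that of Fasn.
Abca1: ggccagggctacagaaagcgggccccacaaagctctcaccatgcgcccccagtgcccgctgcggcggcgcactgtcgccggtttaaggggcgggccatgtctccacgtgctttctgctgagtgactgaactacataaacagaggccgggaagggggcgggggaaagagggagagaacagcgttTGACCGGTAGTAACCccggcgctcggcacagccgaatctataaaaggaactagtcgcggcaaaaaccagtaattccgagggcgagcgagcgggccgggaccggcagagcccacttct
Srebf1: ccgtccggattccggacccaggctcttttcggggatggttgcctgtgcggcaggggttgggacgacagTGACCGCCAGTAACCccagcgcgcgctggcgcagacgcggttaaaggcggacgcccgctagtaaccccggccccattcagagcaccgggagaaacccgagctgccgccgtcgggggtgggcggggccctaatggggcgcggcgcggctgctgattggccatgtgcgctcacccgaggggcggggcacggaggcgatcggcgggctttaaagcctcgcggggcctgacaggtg
Fasn: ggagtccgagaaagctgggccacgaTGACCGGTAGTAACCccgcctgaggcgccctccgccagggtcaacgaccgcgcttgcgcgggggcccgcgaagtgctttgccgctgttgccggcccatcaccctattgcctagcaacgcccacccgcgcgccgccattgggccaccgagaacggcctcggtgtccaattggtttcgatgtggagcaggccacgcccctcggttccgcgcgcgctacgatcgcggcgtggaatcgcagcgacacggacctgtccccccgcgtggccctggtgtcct
Absence of a spelling from a window says only that these letters are not there.

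By likeness of pattern over the 6 samples, Srek1ip1, Trp53inp2 and Ruvbl2 were nearest to Rxrb, the member with the smallest p, among 11279 genes above the median. Their centred values differed from those of Rxrb by a root mean square of 0.0131, 0.0201 and 0.0202. Srek1ip1 read 8.49, 8.51 and 8.63 in knockout samples, against 8.30, 8.33 and 8.37 in wild-type samples. Its difference was 0.21 (limma adjusted p = 0.128), and those of Trp53inp2 and Ruvbl2 were 0.23 and 0.21 (limma adjusted p = 0.0996 and 0.113). These genes did not pass. They were picked for values like those of Rxrb, so differences near its own follow from the choice and are no separate result.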

How the data were processed

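Affymetrix 3' arrays measured mRNA in 6 samples, 3 per genotype. The authors deposited log2 intensities, 1 per probe set and array; the log2 scale was read from their range. Per the submitters' processing notes the tools were RMA, GCRMA 2.30.0, limma 3.14.4 and affy 1.36.1. Whether RMA or GCRMA made the values was not stated there. These methods treat dim probe sets differently, and both normalize between arrays, which hides a change of most genes one way. Of 45101 probe sets, 64 controls were left out, with no filter on dim ones. Symbols came from the platform annotation, updated through RefSeq gene identifiers, and 34945 probe sets had 1 gene. In counts over genes, the brightest probe set by mean stood for a gene.

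Genotypes were compared with lmFit and eBayes of limma 3.58.1 (R 4.3.3), two-sided, with genotype alone in the model and Benjamini-Hochberg adjustment over 45037 probe sets. SEs, 95% intervals and adjusted p-values are limma's, with 5.04 prior degrees of freedom. The fit was tested on simulated arrays. The receptor genes and all gene lists were chosen with earlier results of these data known. Named by rule were all receptor probe sets, Fabp5, the targets Cd36, Plin2, Angptl4, Pdk4, Abca1, Abcg1, Srebf1 and Mylip, up to 6 called genes of a list by smallest p (2 genes where fewer passed), and the 3 genes most like the called receptors, or like the one with the smallest p. Same-numbered samples of the genotypes did not deviate together (r of -0.06, -0.04 and -0.13 over probe sets), and the labels do not say that numbers pair them. No 2 arrays held the same values, and sample medians lay between 5.60 and 5.64. The number of arrays limits the precision. Promoter windows were RefSeq's (GRCm38.p6). Figures used Python 3.11.15 and matplotlib 3.10.9.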

Additional observations from a re-analysis of the deposited data

How the results depend on the processing

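KO1 to KO3 and WT1 to WT3 are the replicates of the genotypes. The count of receptor and coregulator probe sets past the threshold, 0 of 12, was also 0 under median centring, quantile normalization, above-median probe sets, the floor at the 20th percentile (4.07), array weights, trend and robust settings, the replicate block and an adjusted p under 0.1, and 0 to 1 when each sample was left out. By genes it was 0 to 1 as well, and 0 when a gene's probe sets were averaged. The 1 was Ppargc1b without KO3. All probe sets called, 1691, became 2692 with above-median probe sets, 71 with the floor, where probe sets held at the floor have no spread, 3126 with trend and robust settings, 92 with the replicate block, 3775 at an adjusted p under 0.1, and 40 to 1360 with a sample left out. Rxrg and the RXR partners, 1 called, had 0 with the floor or the replicate block and 0 to 1 with a sample left out. The coregulators, 4 called, had 0 with the floor or the replicate block, 7 at an adjusted p under 0.1, 2 with averaged probe sets and 0 to 1 with a sample left out. PPAR targets, 2 called, had 4 with above-median probe sets, 0 with the floor, 7 with trend and robust settings (2 higher and 5 lower), 1 with the replicate block, 5 at an adjusted p under 0.1 and 1 to 2 with a sample left out. LXR targets, 6 called, had 0 with the floor, 2 with the replicate block and 0 to 5 with a sample left out. Fits with a sample left out or the replicate block have fewer degrees of freedom; the cause of the other moves was not tested.

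Among the receptors and the targets always named, signs turned only where the difference was smaller in size than its SE. Ppara, -0.0078, became 0.0156 after quantile normalization and 0.0034 after median centring, and ran from -0.0759 to 0.0675 with a sample left out. The Ppara probe set 1457721_at ran from -0.044 to 0.085. Mylip, 0.0032, became -0.0105 with array weights and ran from -0.0516 to 0.034. Angptl4, 0.0904, ran from -0.0099 to 0.2074 and Pdk4, 0.0485, from -0.0438 to 0.1285 with a sample left out. Replicate numbers are not shown to pair the samples, so a call lost under the replicate block is not read as a weaker effect. With 3 arrays per genotype the 95% intervals of the 12 differences reached from -0.42 to 0.64, and signal over background was not available, which limits what the dim Ppara probe sets can show.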
